A study of Homo sapiens with 9 samples.

Results

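The EGFR family is made up of 4 receptor genes, EGFR, ERBB2, ERBB3 and ERBB4, which were selected by symbol from the 20318 genes of the deposited H2A table. They were followed in T47D-MTVL, a line derived from a human breast tumour that carries an integrated MMTV reporter gene, by ChIP-seq for histone H2A, HP1γ, LSD1 and BPTF. All groups were T47D-MTVL cells kept in charcoal-stripped serum and then without serum. The hormone groups received R5020, a synthetic progestin, at 10 nM for 30 min (BPTF, HP1γ, LSD1, H2A) or 60 min (H2A alone), and the 0 min groups were unstimulated. Each of the 9 groups was 1 library. The files therefore hold no replicate, no p-value was computed, and every difference below is a difference between libraries. The files hold no expression values, so the identity of the line was not checked here against its markers.

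The family consists of transmembrane tyrosine kinases that bind growth factors of the EGF and neuregulin type, pair with each other and signal through RAS, PI3K and STAT5. EGFR binds EGF-like ligands, ERBB2 has no known ligand of its own and acts as the preferred partner, ERBB3 is a neuregulin receptor with an impaired kinase, and ERBB4 is a neuregulin receptor linked to differentiation of the mammary gland. In breast cancer cells these receptors and the progesterone receptor are known to influence each other. HP1γ, encoded by CBX3, is a chromodomain protein of heterochromatin, LSD1, encoded by KDM1A, removes methyl groups from histones, and BPTF is the largest subunit of the NURF nucleosome remodelling complex.

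The 4 genes lie on 4 chromosomes and differ in size and base composition. All coordinates are on GRCh37, also called hg19. EGFR (ENSG00000146648) lies on the plus strand at chr7:55086811-55324313 in the deposited table, with a length of 237.5 kb and 45.1% GC. ERBB2 (ENSG00000141736) lies on the plus strand at chr17:37844167-37884614, with 40.4 kb and 52.0% GC. ERBB3 (ENSG00000065361) lies on the plus strand at chr12:56473989-56496618, with 22.6 kb and 49.9% GC. ERBB4 (ENSG00000178568) lies on the minus strand at chr2:212248340-213403254, with 1155 kb and 34.7% GC, and 1.31% of genes in the comparison had a lower GC content. The canonical transcripts have 28 exons in EGFR, ERBB3 and ERBB4 and 27 in ERBB2, and intron 1 takes 122.9 kb of EGFR and 413.5 kb of ERBB4 but 6.68 kb of ERBB2 and 3.37 kb of ERBB3. No other protein-coding gene lay within 50 kb of EGFR or ERBB4, whereas the ERBB2 window held 7 and the ERBB3 window 8.

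The sequences at which peaks were strongest or met each other are printed here on the plus strand, 5′ to 3′, because the results below return to them. The peak of highest score for HP1γ in any of the 4 windows lay in intron 1 of ERBB2 at 30 min, and that for LSD1 lay upstream of EGFR at 0 min. The central 300 bases of each are shown. The positions are chr17:37858728-37859027 for ERBB2 and chr7:55063189-55063488 for EGFR.

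ERBB2, HP1γ at 30 min: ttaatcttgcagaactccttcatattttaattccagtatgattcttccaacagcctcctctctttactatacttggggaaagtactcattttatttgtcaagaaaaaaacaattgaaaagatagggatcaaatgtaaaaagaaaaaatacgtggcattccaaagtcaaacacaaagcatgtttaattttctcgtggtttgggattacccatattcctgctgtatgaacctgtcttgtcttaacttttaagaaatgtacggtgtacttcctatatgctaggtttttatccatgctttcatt

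EGFR, LSD1 at 0 min: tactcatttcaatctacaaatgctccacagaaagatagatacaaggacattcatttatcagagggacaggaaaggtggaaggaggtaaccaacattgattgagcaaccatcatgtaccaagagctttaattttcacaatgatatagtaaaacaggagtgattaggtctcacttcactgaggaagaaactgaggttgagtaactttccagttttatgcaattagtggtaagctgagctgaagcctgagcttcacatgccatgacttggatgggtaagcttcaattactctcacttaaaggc

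Of the 6 overlaps between peaks of different lists in these windows, the 3 that join different times or involve BPTF are shown next, and capitals mark the bases inside both peaks. The site at chr7:55059815-55060114 held an LSD1 peak at both 30 and 0 min, with 227 shared bases. The site at chr7:55050514-55050813 lay in a displaced BPTF peak and an HP1γ peak of 30 min, with 157 shared bases. The site at chr12:56501979-56502278, 3′ of ERBB3, held HP1γ at 30 min and LSD1 at 0 min, with 281 shared bases.

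EGFR, LSD1 at 30 and 0 min: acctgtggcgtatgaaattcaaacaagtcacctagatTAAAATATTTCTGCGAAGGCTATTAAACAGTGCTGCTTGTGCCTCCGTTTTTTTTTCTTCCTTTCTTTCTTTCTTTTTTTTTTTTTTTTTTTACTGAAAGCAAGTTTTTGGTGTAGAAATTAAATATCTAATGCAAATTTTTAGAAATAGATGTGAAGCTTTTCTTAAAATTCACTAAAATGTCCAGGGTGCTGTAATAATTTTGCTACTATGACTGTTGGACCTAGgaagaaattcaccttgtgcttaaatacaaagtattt

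EGFR, HP1γ at 30 min and displaced BPTF: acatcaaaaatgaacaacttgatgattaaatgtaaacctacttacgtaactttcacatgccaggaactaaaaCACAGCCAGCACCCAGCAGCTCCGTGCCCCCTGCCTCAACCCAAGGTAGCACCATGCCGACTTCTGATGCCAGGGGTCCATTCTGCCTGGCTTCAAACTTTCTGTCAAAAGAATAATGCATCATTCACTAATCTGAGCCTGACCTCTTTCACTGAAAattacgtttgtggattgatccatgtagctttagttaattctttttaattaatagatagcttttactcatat

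ERBB3, HP1γ at 30 min and LSD1 at 0 min: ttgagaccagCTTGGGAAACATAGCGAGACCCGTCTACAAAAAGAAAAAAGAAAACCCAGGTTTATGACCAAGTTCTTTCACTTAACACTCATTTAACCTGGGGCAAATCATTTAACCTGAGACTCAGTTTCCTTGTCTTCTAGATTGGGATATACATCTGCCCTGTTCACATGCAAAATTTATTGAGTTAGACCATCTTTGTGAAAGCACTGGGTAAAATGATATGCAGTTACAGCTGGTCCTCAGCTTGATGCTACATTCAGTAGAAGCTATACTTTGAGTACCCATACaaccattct

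In a displaced BPTF peak in intron 6 of ERBB4 (chr2:212588085-212588684) the letters GNACA and TGTNC separated by any 3 bases, the form of the motif bound by the progesterone receptor, occurred at 212588592 to 212588604. They are in capitals in the 300 bases at chr2:212588385-212588684. The motif reads the same on both strands.

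ERBB4, displaced BPTF: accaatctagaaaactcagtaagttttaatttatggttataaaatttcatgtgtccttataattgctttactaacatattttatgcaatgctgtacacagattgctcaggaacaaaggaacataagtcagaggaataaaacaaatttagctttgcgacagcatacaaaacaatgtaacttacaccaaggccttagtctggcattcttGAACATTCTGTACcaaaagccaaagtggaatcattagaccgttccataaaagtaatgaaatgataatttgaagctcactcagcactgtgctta

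This was the only 1 of the 71 peaks in the 4 windows that held the motif. Over the whole lists, 0.703% of displaced and 2.60% of recruited BPTF peaks held it. In the HP1γ and LSD1 lists the share was 0.571% to 0.823%. The match in ERBB4 lay outside the central 300 bases of its peak. A match is a description of letters and no evidence of binding. RefSeq gives promoter windows, from 250 bases before to 50 after a start, for EGFR (2 starts), ERBB2 and ERBB4, and none of these 4 windows held the motif, against 0.39% of all 35116 RefSeq promoters. None of them held a peak either. The ERBB2 window (chr17:37844097-37844396) does not contain the start of the canonical transcript (37856317), so the promoter of that start was not searched for the motif. Of the 4 windows, the nearest to a peak was that of the main EGFR start. It matched chr7:55086460-55086759 exactly and lay 2258 bp from an HP1γ peak of 30 min. Its 250 bases before the start, at 73.6% GC, are shown from RefSeq.

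EGFR, promoter: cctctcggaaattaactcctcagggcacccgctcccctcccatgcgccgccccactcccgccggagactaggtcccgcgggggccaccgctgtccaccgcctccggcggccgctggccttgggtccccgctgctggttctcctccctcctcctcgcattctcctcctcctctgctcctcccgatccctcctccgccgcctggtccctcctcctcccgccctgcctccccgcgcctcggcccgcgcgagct

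H2A over EGFR, ERBB2 and ERBB3 read lower at 30 min than at 0 min, whereas H2A over ERBB4 read higher. In each of the 4 genes the 60 min level lay between those of 0 and 30 min. The values are the deposited RPKM, which are read numbers scaled to gene length in kb and to sequencing depth. EGFR had 7.44 RPKM at 0 min, 6.65 RPKM at 30 min and 7.21 RPKM at 60 min. ERBB2 had 18.2 RPKM at 0 min, 14.8 RPKM at 30 min and 16.9 RPKM at 60 min. ERBB3 had 16.5 RPKM at 0 min, 14.2 RPKM at 30 min and 15.8 RPKM at 60 min. In these 3 genes the 30 min library was the lowest and the 0 min library the highest. ERBB4 had 1.89 RPKM at 0 min, 2.35 RPKM at 30 min and 1.98 RPKM at 60 min, with the 30 min library the highest and the 0 min library the lowest.

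**Figure D1:**
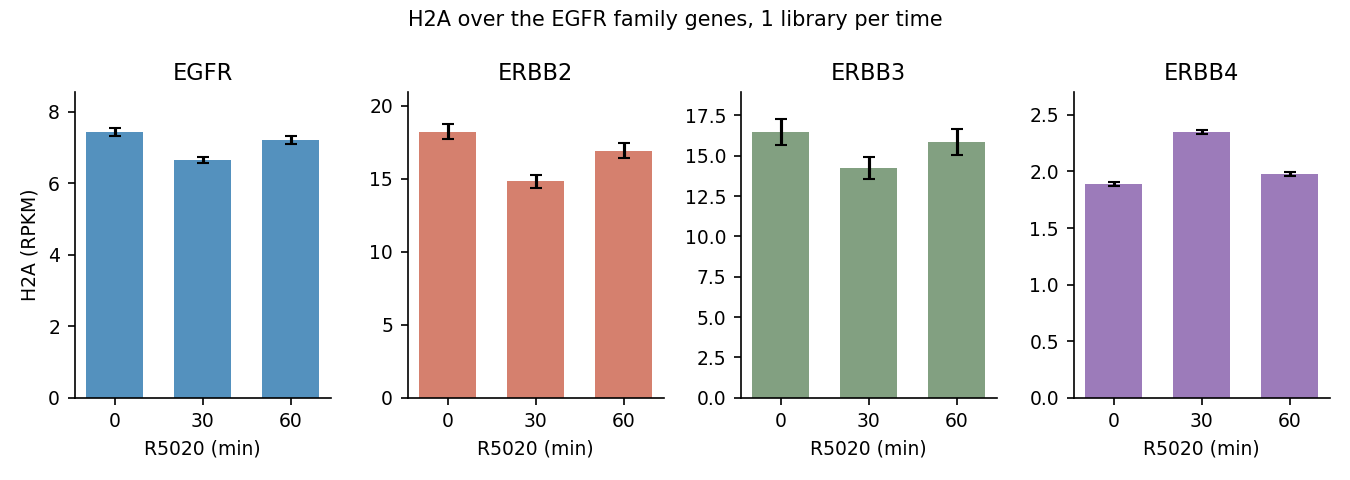
H2A RPKM (vertical axis, from 0) over each gene by minutes of R5020 (horizontal axis), with 1 library per bar and 95% counting intervals. EGFR, ERBB2 and ERBB3 are lowest at 30 min, and ERBB4 is highest at 30 min with 2.35 RPKM.

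Relative to its 0 min level, the 30 min level was 81.4% for ERBB2, 86.4% for ERBB3, 89.4% for EGFR and 124% for ERBB4. The 60 min level was 92.9% for ERBB2, 96.2% for ERBB3, 96.9% for EGFR and 105% for ERBB4. On the log2 scale, with a pseudocount of 0.05 RPKM, the change at 30 min was -0.30 for ERBB2 with a counting standard error of 0.03, -0.21 for ERBB3 with 0.05, -0.16 for EGFR with 0.01 and 0.31 for ERBB4 with 0.01. These errors cover the counting of reads and not the spread between cultures. They rest on 1444 to 57192 reads per transcript, obtained from the RPKM and the recovered depth after division by the number of transcripts in a later annotation than the one behind the table. Neighbours in this order, ERBB2 with ERBB3 and ERBB3 with EGFR, had overlapping 95% counting intervals, and the interval of ERBB4 (0.29 to 0.33) lay apart from the other 3.

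At 60 min the log2 change was -0.11 for ERBB2, -0.06 for ERBB3, -0.04 for EGFR and 0.06 for ERBB4, with counting standard errors of 0.03, 0.05, 0.02 and 0.01 in that order. The interval of ERBB3 (-0.16 to 0.05) included 0. From 30 to 60 min the log2 change was 0.19 for ERBB2, 0.15 for ERBB3, 0.12 for EGFR and -0.24 for ERBB4. These comparisons share libraries and are not independent of each other. None of the 4 genes passed a log2 change of 0.5 at either time. In the whole table of 19709 genes with a mean of at least 0.1 RPKM, 0.345% were higher and 1.99% lower past 0.5 at 30 min, and 0.249% were higher and 0.639% lower at 60 min. Any lower value at all was seen in 3 of the 4 genes at 30 min, against 71.3% of all genes, and in 3 of 4 at 60 min, against 61.2%.

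The changes of the 4 genes followed the GC content of their sequence, as they did over the whole table. The order of the 4 changes at 30 min, from ERBB4 through EGFR and ERBB3 to ERBB2, was the order of rising GC content. Among the 1352 genes within 1 GC percentage point of ERBB2 the median change at 30 min was -0.27 (5th to 95th percentile -0.41 to -0.08). For ERBB3 the 1317 such genes had a median of -0.25 (-0.40 to -0.06), and for EGFR the 1571 such genes had -0.16 (-0.30 to 0.00). For ERBB4 the 558 such genes had a median of 0.30 (0.16 to 0.44). Each receptor gene lay inside the range of its GC neighbours. With the GC trend of all genes taken off, the change at 30 min was -0.03 for ERBB2, 0.03 for ERBB3, -0.01 for EGFR and -0.01 for ERBB4, all within 1 counting standard error of 0. The sign at 30 min thus turned for ERBB3 and ERBB4 when the trend was taken off. At 60 min it turned for ERBB2 (0.01), ERBB3 (0.03) and ERBB4 (-0.02). Each of these values lay within its 95% counting error of 0, so none shows a change in the other direction.

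**Figure D2:**
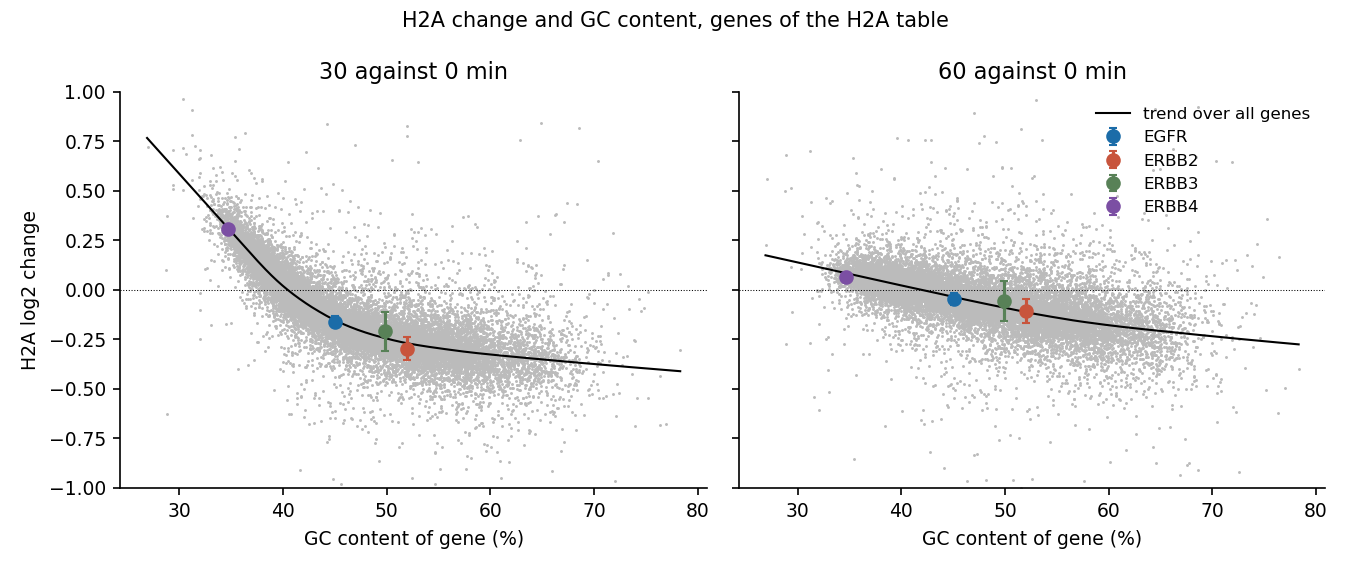
H2A log2 change at 30 min (left) and 60 min (right) against 0 min, plotted against the GC content of each gene in percent. Grey points are the genes of the table, the black line is their trend, coloured points are the receptor genes with 95% counting intervals, and 11 genes at 30 min and 10 at 60 min lie beyond the vertical range. The 4 receptor genes lie close to the trend at both times, with ERBB4 at 0.31 on the left.

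ERBB4 stood high in the table as a whole but in the middle of genes like it. Its change at 30 min exceeded that of 97.4% of all genes. Among 54 genes within 1 GC point of it and within 3 times its length either way, the median was 0.31 and 51.9% read lower than ERBB4. At 60 min these 54 genes had a median of 0.08, and 20.4% read lower than ERBB4 with its 0.06. EGFR had 52.3% of 302 such genes below it at 30 min, ERBB2 33.0% of 657 and ERBB3 74.9% of 785.

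Levels cannot be set side by side between genes without care, because the deposited RPKM summed over annotated transcripts. Divided by the number of transcripts in the later annotation, which is 13 for EGFR, 22 for ERBB2, 33 for ERBB3 and 8 for ERBB4, the 0 min level was 0.828 RPKM per transcript for ERBB2, 0.572 for EGFR, 0.499 for ERBB3 and 0.236 for ERBB4. At 30 min the same order held, with 0.674, 0.511, 0.432 and 0.294 RPKM per transcript. At 60 min it was 0.769 for ERBB2, 0.554 for EGFR, 0.480 for ERBB3 and 0.247 for ERBB4. The distance between ERBB2 and ERBB4 was thus narrower at 30 min than at 0 min. The order of EGFR and ERBB3 rests on the transcript numbers, since undivided ERBB3 had 16.5 RPKM at 0 min and EGFR 7.44 RPKM. The copy number of these loci in the line was not measured in these files.

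Genes beside ERBB2 and ERBB3 had H2A changes of the same kind. Some of these neighbours overlap the receptor gene or each other, among them PGAP3 with ERBB2, ENSG00000257411 with ERBB3 and ZC3H10 with ESYT1. Such genes can share reads, so the neighbours counted here are not independent. In the ERBB2 window, which is the 17q12 segment that is often amplified together with ERBB2 in breast cancer, 6 of 7 neighbours read lower at 30 min, against 71.3% of all genes, with a median of -0.29. With the GC trend taken off, 3 of 7 read lower there and 4 of 8 in the ERBB3 window. GRB7, an adaptor that binds ERBB2, had 12.1 RPKM at 0 min, 9.71 RPKM at 30 min and 10.4 RPKM at 60 min, a log2 change of -0.32 at 30 min. STARD3, a cholesterol carrier of late endosomes, had a log2 change of -0.29, and TCAP, a sarcomere protein gene, had the lowest value in the window at -0.64 with a counting standard error of 0.13. IKZF3, a lymphoid zinc finger gene at 40.1% GC, had 0.01 and was the only neighbour there that did not read lower. In the ERBB3 window all 8 neighbours had values below 0, with a median of -0.22. The lowest was -0.35 for the myosin light chain gene MYL6B, and ZC3H10 was at 0.00 with a counting standard error of 0.12. PA2G4, which encodes the ERBB3-binding protein EBP1, had -0.21 with a counting standard error of 0.07. This was close to ERBB3 itself at -0.21, but so were ESYT1 and IKZF4 in the same window, at -0.22 each.

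Genes of at least 10 kb with the most similar pair of changes at 30 and 60 min were common. Within a distance of 0.05 in the plane of both log2 changes lay 1515 of 13702 genes for EGFR, 1173 for ERBB2, 1537 for ERBB3 and 311 for ERBB4. The nearest were RPP38, WDR59 and FBXO21 for EGFR, FOXN1, SLC22A8 and TRPV3 for ERBB2, ZNF544, MFAP5 and ZBTB7C for ERBB3, and VRK2, CNTN5 and BTG3 for ERBB4. Those of ERBB4 had 35.0% to 37.7% GC. The likeness rests on 3 libraries.

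HP1γ peaks within 5 kb of a canonical transcript start numbered 4 at 30 min, in intron 1 of EGFR, ERBB2 and ERBB3, and 1 at 0 min. The canonical start lies within 0.272 kb of the start in the H2A table for EGFR, ERBB3 and ERBB4, but 12.15 kb 3′ of it for ERBB2 (37856317). Within 5 kb of the canonical start, 3 of the 4 genes had an HP1γ peak at 30 min, against 8.5% of 19540 protein-coding genes, and 1 of 4 at 0 min, against 12.5%. Measured from the table's start, a choice added after the data were seen, ERBB2 had none at either time, and the counts were 2 of 4 at 30 min, against 8.38% of all 20318 genes, and 0 of 4 at 0 min, against 12.5%. In EGFR the 30 min peak at chr7:55089017-55089458 lay 2.53 kb 3′ of the start with a score of 39.05. In ERBB2 it was the peak at chr17:37858670-37859087, 2.56 kb 3′ of the canonical start, with a score of 48.2, whose centre is printed above. In ERBB3 there were 2, at chr12:56475982-56476384 and chr12:56477056-56477441, 2.23 and 3.30 kb 3′ of the start, with scores of 35.33 and 36.68. At 0 min the ERBB2 peak at chr17:37860163-37860601, 4.07 kb 3′ of the canonical start, had a score of 32.28, and ERBB3 had a peak of 41.09 that lay just outside the limit, at -5.84 kb from the start. ERBB4 had none within 5 kb at either time. The score is the authors' own, of unstated definition, and the median over all HP1γ peaks was 37.34 at 30 min and 35.63 at 0 min.

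LSD1 peaks close to a start were found at 30 min upstream of EGFR and in intron 1 of ERBB2. Within 5 kb of the canonical start, EGFR and ERBB2 had an LSD1 peak at 30 min, against 6.69% of all genes, and none of the 4 had one at 0 min, against 10.3%. From the table's start the 30 min count was EGFR alone, 1 of 4, against 6.9%, and the 0 min count 0 of 4, against 10.1%. The EGFR peak lay at chr7:55082275-55082566, at -4.29 kb from the start, with a score of 42.54. The ERBB2 peak lay at chr17:37857909-37858356, 1.81 kb 3′ of the canonical start in intron 1, with a score of 30.99, close to the HP1γ peak of the same time but not overlapping it. A second ERBB2 peak of 30 min, at chr17:37879960-37880356 with a score of 34.37, overlapped coding exon 19. No BPTF peak of either list lay within 5 kb of a family start, against 1.65% of all genes for recruited and 1.65% for displaced peaks, and none lay within 5 kb of the table's start, against 1.6% for recruited and 1.68% for displaced peaks. Whether these counts differ between 30 and 0 min was not tested, since each list came from 1 library.

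**Figure D3:**
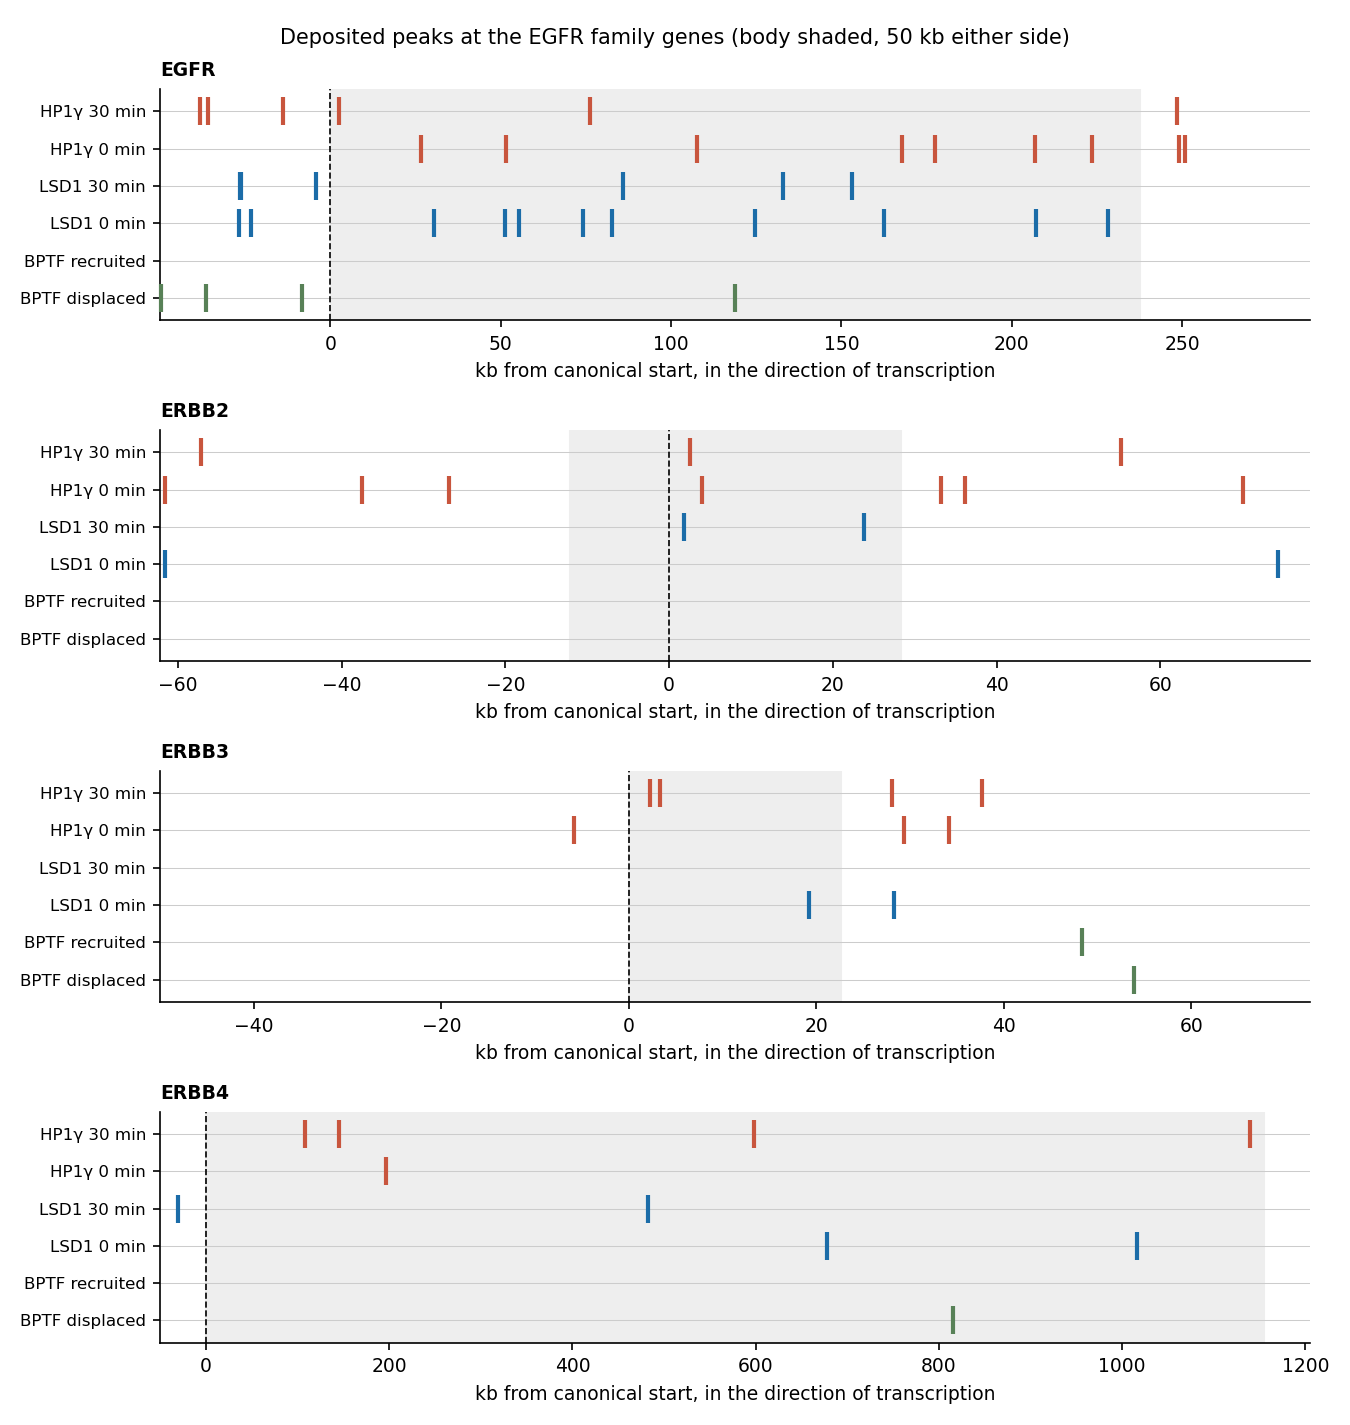
Positions of the deposited peaks (ticks) in the window of each gene, in kb from the canonical start along the direction of transcription, with 1 row per list and the gene body of the H2A table shaded. HP1γ ticks at 30 min within 5 kb of the canonical start are seen in EGFR, ERBB2 and ERBB3, and displaced BPTF ticks lie upstream of EGFR.

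Over the whole windows, each taken as the gene with flanks of 50 kb, the family held 17 HP1γ peaks at 30 min and 20 at 0 min. The numbers of LSD1 peaks were 10 at 30 min and 17 at 0 min. At the rates of their own chromosomes the same windows would hold 10.2 HP1γ peaks at 30 min and 12.8 at 0 min, and 8.86 LSD1 peaks at 30 min and 13.6 at 0 min. Exact Poisson 95% intervals of the counts, which cover counting error only, were 9.90 to 27.2 and 12.2 to 30.9 for HP1γ and 4.80 to 18.4 and 9.90 to 27.2 for LSD1, each at 30 and then 0 min. All 4 genes had at least 1 HP1γ peak at 30 min, against 50% of all genes, and at 0 min, against 53.4%. LSD1 peaks were present at 3 genes at 30 min, against 49.9%, and at all 4 at 0 min, against 44.3%. These shares of all genes are not matched for window length, and the windows of EGFR and ERBB4 were 337.5 and 1255 kb. The depth of the HP1γ, LSD1 and BPTF libraries is unknown.

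By number, EGFR had the most HP1γ and LSD1 peaks in its window at both times, but per Mb ERBB3 (32.6) and ERBB2 (21.4) were denser for HP1γ at 30 min and ERBB2 (49.8) at 0 min. In the gene body alone ERBB4 had 4 HP1γ peaks at 30 min, and EGFR had 2. Its 337.5 kb window held 6 HP1γ peaks at 30 min and 9 at 0 min, or 17.8 and 26.7 per Mb, where chromosome 7 had 11.1 and 15.4 per Mb. It held 6 LSD1 peaks at 30 min and 11 at 0 min, or 17.8 and 32.6 per Mb, where the chromosome had 8.93 and 18.05 per Mb. Intron 1 held 1 of the LSD1 peaks at 30 min and 5 at 0 min. At 0 min LSD1 peaks also overlapped coding exon 3 (chr7:55211085-55211617, score 39.67) and coding exon 20 (chr7:55249040-55249488, score 33.65). The strongest LSD1 peak of the family, at chr7:55062967-55063711 with a score of 56.73, lay at -23.4 kb from the start at 0 min. On chromosome 7, 14.1% of genes had a denser window for LSD1 at 0 min and 19.1% for HP1γ at 0 min, so EGFR was in the upper part of its chromosome but not at its end.

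ERBB2 had 3 HP1γ peaks at 30 min and 7 at 0 min, and 2 LSD1 peaks at each time. Of its 0 min HP1γ peaks, 3 lay 5′ of the gene in STARD3 or PGAP3 and 1 in an intron of IKZF3, so most lay outside ERBB2 itself. The gene body held 1 HP1γ peak at 30 min and 1 at 0 min, and 2 LSD1 peaks at 30 min and 0 at 0 min. The window of GRB7 shared 2 of the 3 HP1γ peaks at 30 min and 4 of the 7 at 0 min, and 2 of the 2 LSD1 peaks at 30 min and 1 of the 2 at 0 min. The HP1γ density at 0 min was 49.8 per Mb, against 20.6 per Mb on chromosome 17, where 8.63% of genes had a denser window.

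ERBB3 had 4 HP1γ peaks at 30 min and 3 at 0 min, with 2 and 0 of them in the gene body. It had 0 LSD1 peaks in the 30 min list and 2 in the 0 min list, and a count of 0 has an upper Poisson limit of 3.69 peaks. The 0 min LSD1 peaks lay in intron 23 (chr12:56492973-56493427, score 33.07) and 3′ of the gene in an intron of PA2G4 (chr12:56501989-56502506, score 41.19). The PA2G4 site overlapped an HP1γ peak of 30 min (chr12:56501759-56502269, score 40.46), and the bases in both are in capitals above. The highest HP1γ score in the window, 47.91 at 30 min, fell on an exon of the ribosomal protein gene RPL41.

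ERBB4 had few peaks for its length, as did the rest of chromosome 2. Its 1255 kb window held 4 HP1γ peaks at 30 min and 1 at 0 min, or 3.19 and 0.797 per Mb, where the chromosome had 2.13 and 1.49 per Mb. It held 2 LSD1 peaks at 30 min and 2 at 0 min, or 1.59 per Mb at both times, where the chromosome had 2.23 at 30 min and 1.12 at 0 min. Among 30 genes of chromosome 2 within 3 times its length the median for HP1γ was 1.81 per Mb at 30 min and 0 at 0 min. The HP1γ peaks of 30 min lay in intron 1 (scores 44.38 and 34.19), intron 3 (46.99) and intron 25 (40.83), and the peak of 0 min in intron 1 (33.75). The Poisson intervals of 1.09 to 10.2 at 30 min and 0.0253 to 5.57 at 0 min overlap.

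**Figure D4:**
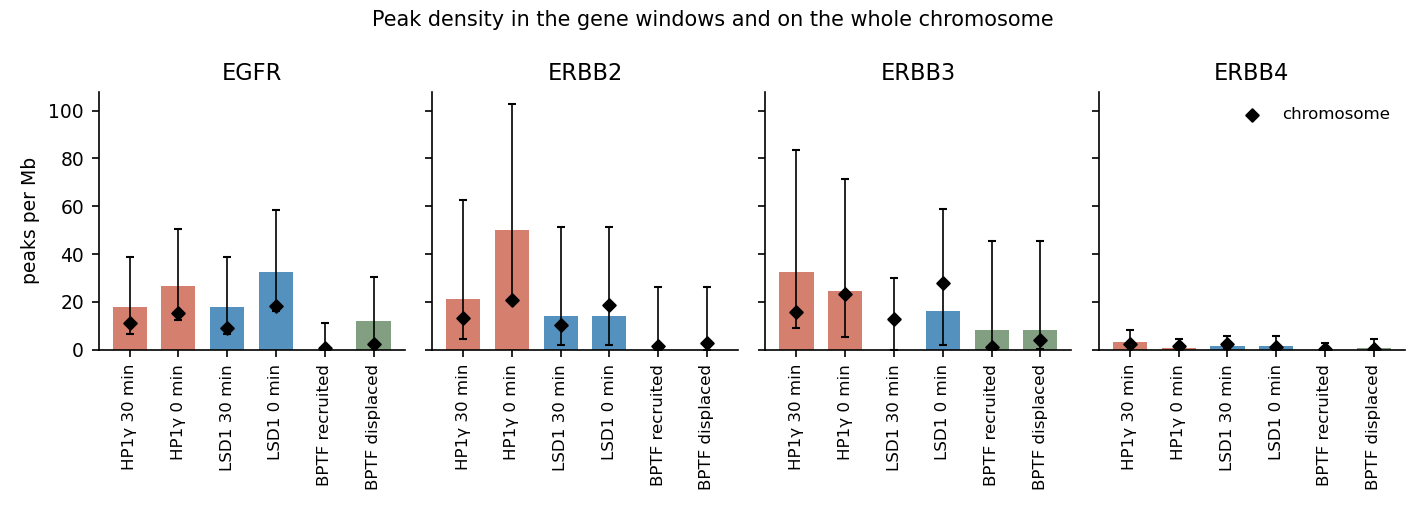
Peaks per Mb (vertical axis) in each gene window by list, with exact Poisson 95% intervals, and the density of the whole chromosome as black diamonds. The interval of EGFR for displaced BPTF, at 11.9 against 2.48 per Mb, does not include the chromosome density, and the other intervals do. The intervals cover counting error only, and no difference from the chromosome was tested.

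EGFR had the highest count of displaced BPTF peaks in the family, 3 of them upstream of the start. Of the 6 displaced peaks in the family windows, 4 belonged to EGFR, 1 to ERBB3 and 1 to ERBB4. The EGFR peaks lay at -49.7, -36.6 and -8.49 kb from the start (chr7:55036785-55037292, chr7:55049407-55050742 and chr7:55077888-55078562) and in intron 1 at 118.7 kb (chr7:55205087-55205680). At the rate of chromosome 7 the window would hold 0.839, and the Poisson interval of the count was 1.09 to 10.2. The count depends on the flanks, with 1 displaced peak at EGFR with flanks of 5 kb and 1 in the gene body alone. On chromosome 7, 1.85% of genes had a denser window, and among 215 genes there within 3 times the length of EGFR the 95th percentile was 10.6 per Mb. At least 1 displaced peak was found at 3 of the 4 family genes, against 18.3% of all genes. That share is not matched for window length or chromosome. At the rates of their own chromosomes the 4 windows would together hold 2.20 displaced peaks. Among the 54 other receptor tyrosine kinase genes 13 had a displaced peak, and EPHA6 and MUSK had 4 each, as many as EGFR.

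A recruited BPTF peak was found at 1 of the 4 genes, against 12.1% of all genes, a share not matched for window length. At the rates of their own chromosomes the 4 windows would together hold 0.826. The peak lay in the ERBB3 window at chr12:56521988-56522610, 48.4 kb 3′ of the start. It touched an exon of ESYT1, a tether between the endoplasmic reticulum and the plasma membrane. The displaced peak of the same window (chr12:56527524-56528245) also touched an exon of ESYT1. No BPTF peak of either list was found at ERBB2. BPTF peaks carry no score, and the criterion for a change was not given in the sources used here.

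Peaks seldom recurred in these windows. None of the 17 HP1γ peaks of 30 min overlapped any of the 20 of 0 min, where 5.76% of all HP1γ peaks of 30 min overlapped one of 0 min. Of the 10 LSD1 peaks of 30 min, 1 overlapped a 0 min peak, where 6.38% did in the whole list. This was the site at -26.6 kb from the EGFR start (chr7:55059852-55060299 at 30 min with a score of 30.99, chr7:55059661-55060078 at 0 min with 36.85), printed above. At 30 min no HP1γ peak overlapped an LSD1 peak, and at 0 min 3 did, with 2 at EGFR and 1 in STARD3 at the edge of the ERBB2 window. In the whole lists 3.08% of HP1γ peaks overlapped LSD1 at 30 min and 7.83% at 0 min. With so few peaks a difference from these rates was not detectable. Of the 6 displaced BPTF peaks, 1 overlapped an HP1γ peak of 30 min, at the EGFR site printed above, where 2.49% did in the whole list. None of the 6 overlapped an HP1γ peak of 0 min, where 4.13% did in the whole list. None overlapped an LSD1 peak of 30 min or 0 min either, where 2.27% and 5.37% did.

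The family peaks had scores near the medians of their lists and a higher GC content. Scores at the family genes had medians of 37.3 for HP1γ at 30 min and 34.98 at 0 min, and 34.38 for LSD1 at 30 min and 39.67 at 0 min. Only 1 of the 64 HP1γ and LSD1 peaks reached a score of 50, where 8.34% to 14.5% did in the whole lists. Median GC was 46.2% for HP1γ at 30 min and 45.9% at 0 min, against 38.95% and 42.07% in the lists. For LSD1 it was 47.0% at 30 min and 42.0% at 0 min, against 38.11% and 37.55%. The higher GC was not a trait of ERBB4. Its HP1γ peaks had 33.8% to 40.9% at 30 min and 40.9% at 0 min. Its LSD1 peaks had 33.5% and 40.4% at 30 min and 31.0% and 35.2% at 0 min.

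At 30 min the ligands, effectors and regulators of the receptors, taken by the medians of their lists, also followed their GC content. Of 11 ligand genes 10 passed the filter on low values, with 3 lower and 7 higher at 30 min and a median log2 change of 0.11, against -0.14 over all genes. HBEGF, an EGFR ligand at 49.99% GC, had the lowest change at -0.24, and EPGN, a ligand at 35.2% GC, the highest at 0.28 with a counting standard error of 0.14. NRG1, a ligand of ERBB3 and ERBB4, had 0.11 and NRG3, an ERBB4 ligand, had 0.12. AREG, which encodes amphiregulin and has a near-identical copy, did not pass the filter. Of 17 adaptors and effectors 11 read lower and 6 higher, with a median of -0.13, and the lowest was HRAS at -0.41. Of 14 regulators 6 read lower and 8 higher, with a median of 0.01, from the mucin MUC4 at -0.27 to the ubiquitin ligase CBLB at 0.27. Of the 54 other receptor tyrosine kinases 44 read lower and 10 higher, with a median of -0.17, from FLT4 at -0.39 to EPHA5 at 0.43. Over all genes 71.3% read lower at 30 min. No gene of these lists passed 0.5 at 30 min, where 0.345% of all genes were higher and 1.99% lower past it. With the GC trend taken off, the medians were -0.01 for ligands, 0.00 for effectors, 0.00 for regulators and -0.01 for the other kinases.

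**Figure D5:**
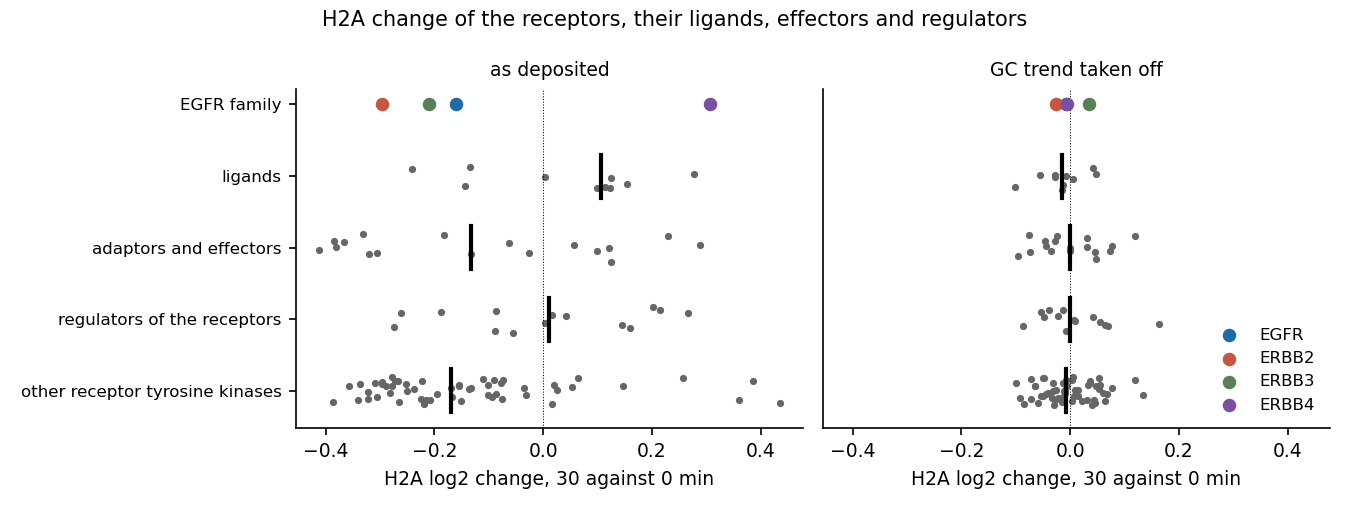
H2A log2 change at 30 against 0 min (horizontal axis) of the receptor genes, of their ligands, effectors and regulators and of the other receptor tyrosine kinases, before (left) and after (right) the GC trend was taken off. Bars are medians, and on the right all 4 receptors lie between -0.03 and 0.03.

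At 60 min the median log2 change was 0.01 for ligands (4 lower, 6 higher) and 0.00 for effectors (9 lower, 8 higher). It was 0.00 for regulators (7 lower, 7 higher) and -0.07 for the other kinases (40 lower, 14 higher). Over all genes the median was -0.03, and 61.2% read lower. EPGN had 1.81 RPKM at 0 min, 2.21 RPKM at 30 min and 2.42 RPKM at 60 min. Its change of 0.41 at 60 min, with a counting standard error of 0.15, was the highest of the ligands tested. With the GC trend taken off, this change of EPGN was 0.33.

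Peaks in the rest of the pathway were unevenly spread. NRG3 and NRG1 have windows of like length, 1210 and 1203 kb. NRG3, on chromosome 10, held 27 HP1γ peaks at 30 min and 29 at 0 min, and 15 LSD1 peaks at 30 min and 46 at 0 min. NRG1, on chromosome 8, held 1 HP1γ peak at 30 min and 1 at 0 min, and 1 LSD1 peak at 30 min and 0 at 0 min. Chromosome 8 as a whole had 14.8 HP1γ peaks per Mb at 30 min and 21.1 at 0 min, and chromosome 10 had 13.0 and 17.8. PIK3CA, the catalytic PI3K subunit gene on chromosome 3, held 17 HP1γ peaks at 30 min and 14 at 0 min and 15 LSD1 peaks at 30 min and 14 at 0 min in a window of 191.6 kb, the highest counts among the effectors. Of the other 54 receptor tyrosine kinases 31 had an HP1γ peak at 30 min (57.4%, against 50% of all genes) and 29 at 0 min (53.7%, against 53.4%). An LSD1 peak was present at 29 of them at 30 min (53.7%, against 49.9%) and at 27 at 0 min (50%, against 44.3%).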

How the data were processed

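Titles gave the antibody and time of each sample, and thus 9 groups of 1 library with no test between conditions. The H2A table deposited by the authors gives RPKM of protein-coding genes. Reads of both strands were counted over GENCODE version 18, per the file headers, with HOMER and the hg19 build named in the submitters' processing notes. These notes also name Bowtie 1.0.0 and HOMER 4.7.2. Each HP1γ and LSD1 library has a deposited peak list with a score, and no source used here defines it. The BPTF lists are positions of displaced and recruited peaks as deposited by the authors.

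Gene bodies were those of the H2A table, with 50 kb added on each side, and peaks counted with an overlap of at least 1 bp. Genes with a mean of at least 0.1 RPKM were compared as log2(RPKM + 0.05), a scale that understates the change of low genes. The steps of the RPKM of short genes with 1 transcript gave depths, in M reads, of 140.7 (0 min), 168.6 (30 min) and 132.9 (60 min), at which 100% of 67, 76 and 59 low values were whole within 0.05 reads. Counting standard errors used the reads so recovered, divided by the number of transcripts in GENCODE version 44 lifted to GRCh37. Where that number is too high the error is too large. The GC trend was a lowess curve (fraction 0.3, statsmodels 0.14.6) over all genes compared. Start sites, exons and introns are those of the canonical transcript in the same GENCODE version 44. The depth and window steps were tested on simulated data. The members and gene lists were chosen with earlier results of these data known. Named genes were the 4 receptors, the lowest and highest of each list (the highest effector is not reported here), the neighbours per window, and the 3 genes of most similar change per receptor. GRB7, PA2G4, NRG1, NRG3, PIK3CA, EPHA6 and MUSK were named after their values were seen. BED starts were shifted by 1 to 1-based positions.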

Additional observations from a re-analysis of the deposited data

How the results depend on the processing

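Each comparison rests on 1 library per group, and no replicate could be left out. No paired analysis was possible because each group holds 1 library. Of the 60 values obtained for the counts under alternatives, 35 stayed within 1.5 times. The 12 H2A changes of the receptors kept their sign under other pseudocounts and on centring, and 7 of 12 turned when the GC trend was taken off. That step made 3 of 4 genes read lower from 30 to 60 min, against 1 of 4. Over the whole table, the genes past 0.5 at 30 min were 68 higher and 392 lower. They became 7 and 54 with a pseudocount of 0.5 RPKM, 294 and 106 on centring, and 50 lower with the GC trend taken off. At 60 min 49 higher and 126 lower became 3 and 4 with that pseudocount, and 75 and 58 with the GC trend taken off. With the flanks cut to 5 kb, HP1γ counts were 9 at 30 min and 10 at 0 min, and BPTF counts 0 recruited and 2 displaced. In the gene body alone they were 9 and 9 for HP1γ, 6 for LSD1 at 30 min, and 0 and 2 for BPTF. At a score of at least 50, HP1γ had 0 at 30 min and 0 at 0 min, and LSD1 0 at 30 min and 1 at 0 min. Displaced BPTF peaks at EGFR were 1 with 5 kb flanks and 1 in the body, against 4. Measured from the table's start, an alternative added after the data were seen, 0 genes had an HP1γ peak within 5 kb at 0 min, against 1, and 1 had an LSD1 peak at 30 min, against 2. The shorter windows hold fewer peaks by construction. A window of 50 kb takes in neighbours at ERBB2 and ERBB3. For the other changes the cause was not tested.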
